A study of Xenopus tropicalis with 18 samples.

Results

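The genes described here were more abundant in early gastrulae after knockdown of Sox3 and not clearly more abundant in those after knockdown of Foxi2. They were chosen by measured values: the log2 ratio of morphant to control was at least 1 in both same-numbered pairs of the Sox3 libraries at stage 10.5, and the mean ratio over the Foxi2 pairs at stage 10.5 was under 0.3. *sox3* itself and symbols starting with sox17, mix, gata or nodal were left out. The ratio was log2((morphant CPM + 1)/(control CPM + 1)), where CPM is the expected count of a gene divided by the total of its library and multiplied by 1000000. The rule kept 59 of 28850 genes. Before the other limits, 91 genes (0.315% of the table) passed in both Sox3 pairs, of which 31 were at or above the Foxi2 limit and 1 was left out by symbol.

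The data were polyA RNA-seq of whole wild-type *Xenopus tropicalis* embryos in 18 libraries. A translation-blocking morpholino (MO) against *sox3* or *foxi2*, an antisense oligonucleotide that stops synthesis of the protein without removing the transcript, was injected into the animal hemisphere, by the labels in 1-cell embryos, while the study's methods also name the 2-cell stage. RNA was taken at stage 9 (late blastula) and stage 10.5 (early gastrula). Each Sox3 group (morphant and control, at each stage) held 2 libraries, each Foxi2 group at stage 9 held 3 and each Foxi2 group at stage 10.5 held 2. The study describes its control embryos as wild type, whereas the treatment label of every library, controls included, names a morpholino, so an effect of injection itself cannot be told apart from the loss of Sox3 in a comparison of morphants with controls. Each library is a pool of cells of all germ layers, so that fewer cells of a type and less RNA per cell cannot be told apart.

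Sox3 is a SoxB1 transcription factor with an HMG box. Its mRNA is supplied by the mother and lies in the animal hemisphere of the *Xenopus* embryo, which forms ectoderm, and later it marks neural progenitors. In *Xenopus* the protein is known both to activate ectodermal and neural genes and to hold back endodermal genes through Nodal signals. Foxi2 is a forkhead factor, also supplied by the mother to the animal hemisphere, and activates genes of the early ectoderm. The early gastrula is the stage at which the germ layers part and mesoderm moves inward, soon after the embryo has taken over transcription from maternal stores.

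Of the 59 genes, 36 carry a gene symbol and 23 only a locus number. By the RefSeq annotation of the V10.0 genome, from which the coordinates here are taken, 52 code for protein, 6 are long non-coding RNAs and 1 is a pseudogene. They lie on all 10 chromosomes, with between 1 and 12 on a chromosome. For 13 of the 59, and for 15.4% of all genes, the expected count was over 0.01 away from a whole number in some library, which happens when reads are shared between similar sequences. Of the named genes only *noxred1* was among them. The counts of *pcdha13*, of a protocadherin cluster whose members share sequence, were whole in every library.

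Library totals were between 12740571 and 27866261 expected counts. The *sox3* transcript was more abundant in the Sox3 morphants, at 1717 and 1199 CPM against 624 and 449 CPM in the controls at stage 10.5, which a morpholino that blocks translation does not contradict and which gives no check of the protein. The study checked the protein by Western blot at late blastula and early gastrula, and reports that Sox3 and Foxi2 were substantially depleted in their morphants. It also describes a rescue of each knockdown with mRNA of its gene, read in direct target genes. Whether that rescue covered any of the 59 genes was not examined here. Markers of the ectoderm had a summed level of 1589 and 1311 CPM in the Sox3 morphants at stage 10.5 against 2070 and 1648 CPM in the controls. Markers of the endoderm had a summed level of 3712 and 4086 CPM against 2858 and 3136 CPM. The part of these germ layer differences in the levels of the 59 genes was not tested.

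Foxi2 libraries of the same stage label did not sit at 1 point in development, above all those of stage 9. For the 1147 other genes that were higher at stage 10.5 than at stage 9 in Sox3 controls (at least 2-fold, unadjusted p under 0.05 by edgeR), the mean log2(CPM + 2) in the Foxi2 controls of stage 9 was 2.23, 3.07 and 4.10 in replicates 1, 2 and 3. The Foxi2 controls of stage 10.5 had 4.47 and 3.86. Replicate 3 of stage 9 was therefore above a library labelled stage 10.5, and its morphant partner was too, at 4.06. The 2 pairs of stage 10.5, which set the Foxi2 limit of the rule, were also apart, with morphants at 4.42 and 3.95. Same-numbered morphants and controls were closer than replicates were, so that ratios within a pair are less touched than levels. The widest gap was in pair 2 of stage 9, at 3.27 in the morphant against 3.07 in the control.

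**Figure D1:**
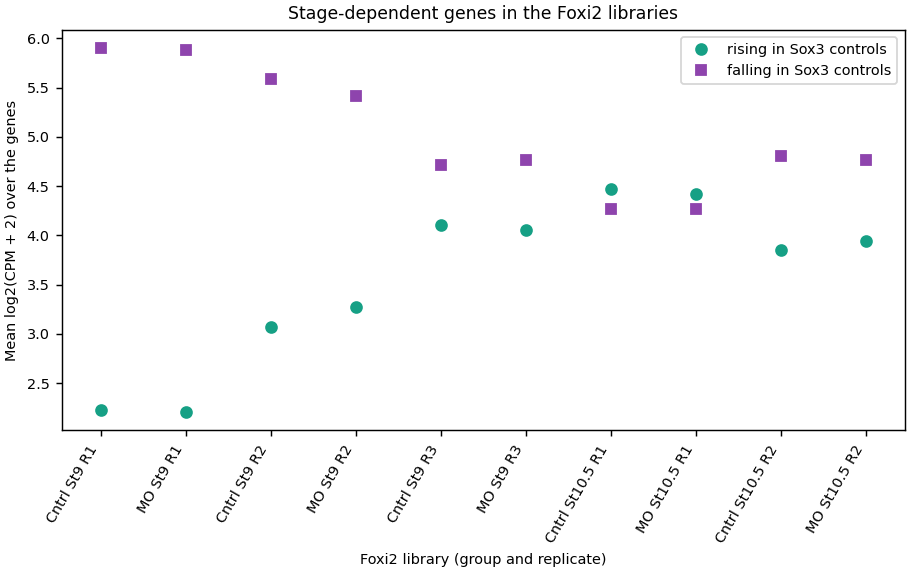
Mean log2(CPM + 2) in each Foxi2 library of genes that were higher (1147, circles) or lower (1621, squares) at stage 10.5 than at stage 9 in the Sox3 controls. The control of stage 9 replicate 3 had 4.10 for the first set, above the 3.86 of the control of stage 10.5 replicate 2, while morphant and control of the same number lay close to each other.

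At the early gastrula stage the 59 genes had mean log2 ratios of 1.01 to 3.54 in the Sox3 morphants, with a median of 1.36. For 57 of the 59 both morphant libraries lay above both controls. In the Foxi2 morphants of the same stage the mean ratios ran from −0.88 to 0.29 with a median of 0.00, and 29 were negative. Some of the 59 were scarce in these Foxi2 libraries, where the 1 CPM added draws a ratio toward 0. Only 58 of the 59 had a count in them. Among the named genes *c10orf71*, *exoc3l1*, *fbn3*, *gdpd3*, *gzmh*, *hhla2*, *icoslg* and *noxred1* were too scarce to test there. For such genes a ratio near 0 does not show an unchanged level. The ratios of both knockdowns chose the genes and are given as a description. By edgeR's quasi-likelihood test with Benjamini-Hochberg adjustment and a 2-fold minimum, 0 of the 59 were called without pairing (0.0% of 14427 genes tested, with 51 of the 59 at an unadjusted p under 0.05). With the replicate number as a block 58 were called higher (1.87% of all tested), *adamts1* being the exception, and DESeq2 called 31. Nothing is read from these counts, since the same libraries selected the genes.

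**Figure D2:**
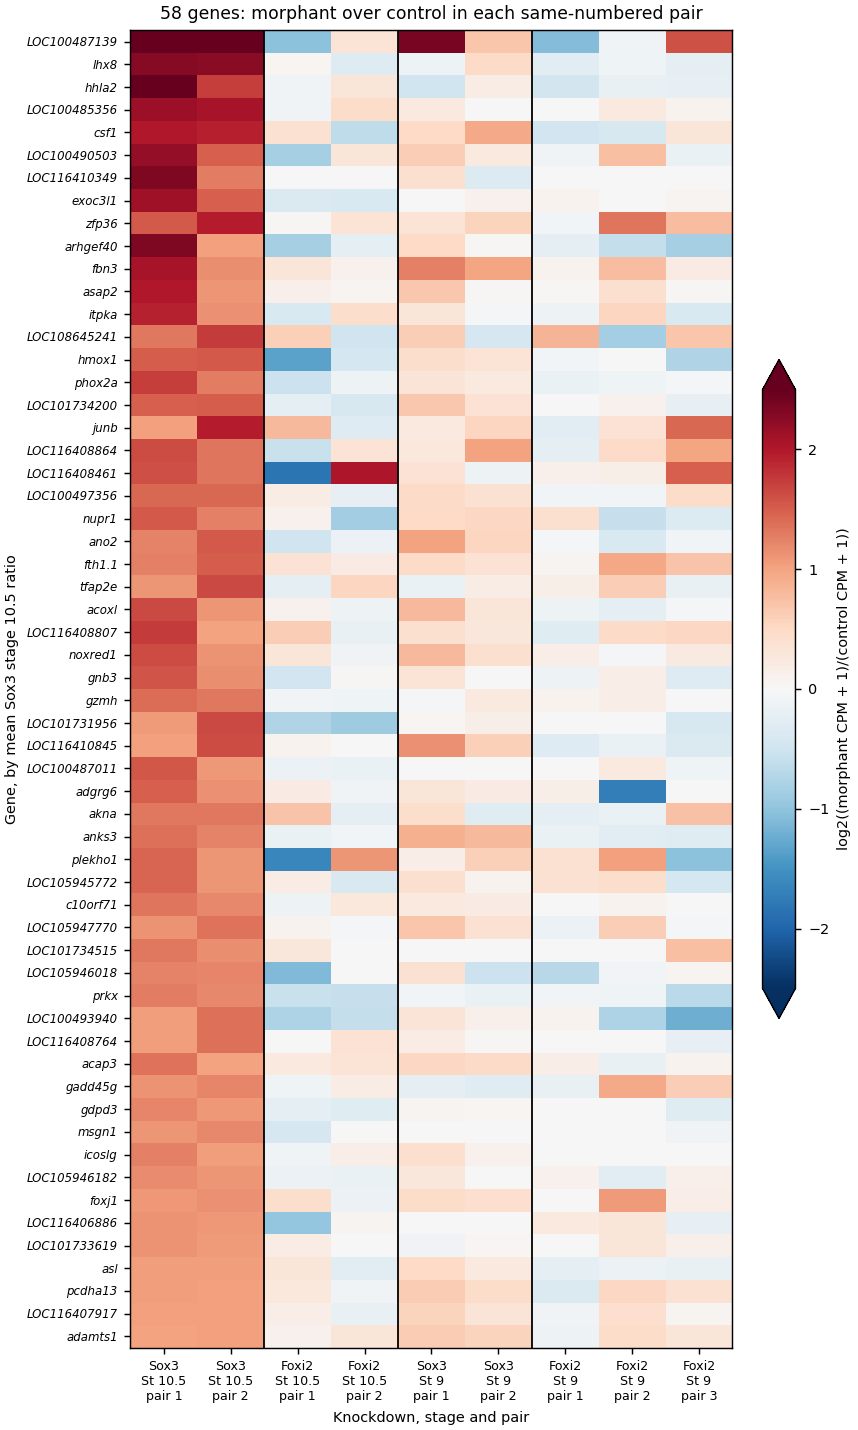
Log2 ratio of morphant to control CPM (each with 1 CPM added) for 58 of the 59 genes in each of the 9 same-numbered pairs, with colours limited at 2.5 in either direction. The columns for Sox3 at stage 10.5 and Foxi2 at stage 10.5 chose the genes. Of all 59 genes, 39 were above 0 in both Sox3 pairs of stage 9 and 4 in all 3 Foxi2 pairs of stage 9.

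A comparison chosen after seeing the data set the controls of the 2 knockdowns side by side, in CPM from separate tables. At stage 10.5 both Sox3 controls lay below both Foxi2 controls for 12 of the 59 genes (21.8% of 20922 genes with a count) and above both for 10 (25.6%), so neither count stands above the share of all genes. The mean of the Foxi2 controls was nearer to the Sox3 morphants than to the Sox3 controls for 7 genes at stage 10.5 and for 30 at stage 9. The share of all genes was not taken, so nothing is read from these counts. At stage 9 every Sox3 control lay below every Foxi2 control for 5 genes (11.7% of 20819).

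Genes close to the limits show how finely the rule divides. The lower of the Sox3 ratios was 1.00 for *adamts1* and 1.01 for *acap3*, while *crybg2* at 0.996, *znf534* at 0.989 and *c7h10orf143* at 0.988 fell outside. On the Foxi2 side *acap3* at 0.293, *fth1.1* at 0.281 and *junb* at 0.251 were just inside, and *cfd* at 0.304, *mrc2* at 0.368 and *otp* at 0.372 were just outside.

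The named genes were sorted by role after their values were known, so the groups below carry no test. A first group of 6 holds genes known in mammals for stress and immediate-early responses. *fth1.1* (chr7:113271079-113274384), the heavy chain of the iron store ferritin, was the most abundant of the 59, at 307 and 371 CPM in Sox3 morphants of stage 10.5 against 128 and 130 CPM in controls. *hmox1* (chr4:115580468-115587518), heme oxygenase, which breaks heme down and frees its iron, was at 23.8 and 6.09 CPM against 7.71 and 1.45 CPM. The level of *hmox1* differed more between pairs than between morphant and control, yet the ratio was close to the same in both pairs, at 1.51 and 1.53, so the groups overlapped and the pairs did not.

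*zfp36* (chr8:81495865-81501048), whose product tristetraprolin speeds the decay of mRNAs with AU-rich ends, was at 12.7 and 21.1 CPM against 3.73 and 4.71 CPM. *gadd45g* (chr1:138049183-138051097), of a family induced by growth arrest and DNA damage, was at 142 and 155 CPM against 64.8 and 65.8 CPM. *nupr1*, a small chromatin protein induced by stress, was at 12.8 and 11.3 CPM against 3.81 and 4.09 CPM. The groups did not overlap for *zfp36*, *gadd45g* or *nupr1*. *junb*, a subunit of the AP-1 transcription factor, was low, at 1.47 and 6 CPM against 0.210 and 0.791 CPM. Under Foxi2 knockdown the 6 ratios of this group ran from −0.88, for *hmox1*, to 0.28, for *fth1.1*. *hmox1* stood at 3.46 and 0.526 CPM in Foxi2 morphants against 10.2 and 1.06 CPM in their controls, the opposite order to that in the Sox3 libraries. With the replicate block 1 of the 59, *hmox1*, was called lower there (0.613% of 13215 genes were) and without it 0, and nothing is read from this, since the Foxi2 limit of the rule used these values and favours low ones.

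A second group holds 6 transcription factors and DNA-binding proteins. *lhx8* (chr4:81150550-81160496), a LIM homeobox factor of oocytes and the ventral forebrain in the mouse, was at 12.2 and 9.19 CPM in morphants against 1.72 and 1.14 CPM in controls. Its ratio was the second highest of all 59, a rank that rests on the 1 CPM added. In the unpaired edgeR fit several scarcer genes stood above its log2 fold change of 2.87, among them *exoc3l1* at 6.59 and *c10orf71* at 4.15. *foxj1* (chr10:45078504-45084365), the factor that drives the formation of motile cilia, was at 33.0 and 38.3 CPM against 15.0 and 16.7 CPM. *tfap2e*, of the AP-2 family, was at 13.6 and 20.9 CPM against 5.74 and 5.98 CPM. In each of these the groups were apart by more than the spread within either group.

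*phox2a*, a homeobox factor of autonomic neurons, was at 10.7 and 7.2 CPM against 2.56 and 2.37 CPM. *msgn1*, a basic helix-loop-helix factor of presomitic mesoderm, was at 6.42 and 4.16 CPM against 2.47 and 1.23 CPM. *msgn1* was the only mesoderm marker of the 13 tested to be called higher with the replicate block, and it is 1 of the 59 by the rule. *akna*, an AT-hook protein, was at 4.72 and 10.5 CPM against 1.3 and 3.65 CPM, so that the pairs differed as much as the groups. *tfap2e* is a relative of *tfap2a*, an ectodermal factor that was among the 5 of 12 ectoderm markers called lower with the block, together with *dlx3*, *dlx5*, *krt7* and *tp63*.

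The largest named group, of 8, holds ligands, receptors and proteins that relay their signals. *csf1* (chr2:71973124-71983983), the growth factor of macrophages, was at 6.90 and 4.35 CPM in Sox3 morphants against 0.964 and 0.396 CPM in controls. *prkx*, a kinase that cyclic AMP activates, was at 15.3 and 10.9 CPM against 5.74 and 4.22 CPM. *gnb3*, a beta subunit of heterotrimeric G proteins, was at 45.3 and 20.5 CPM against 14.6 and 8.62 CPM. *adgrg6*, an adhesion G protein-coupled receptor needed for myelination in fish and mouse, was at 7.85 and 6.38 CPM against 2.14 and 2.33 CPM. *csf1*, *prkx*, *gnb3* and *adgrg6* were each higher in both morphants than in either control.

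*itpka*, which phosphorylates inositol trisphosphate and so ends a calcium signal, was at 64.9 and 41.2 CPM against 16.3 and 18.1 CPM. *plekho1*, a pleckstrin homology domain protein, was at 38.1 and 42.7 CPM against 13.2 and 19.4 CPM. *ano2*, a chloride channel opened by calcium, was at 17.2 and 28.4 CPM against 6.75 and 9.15 CPM. These again did not overlap. *plekho1* was uneven in the Foxi2 libraries of stage 10.5, at 8.22 and 10.6 CPM in morphants and 27.4 and 4.41 CPM in controls, so its mean ratio of −0.26 there averages opposite pairs.

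**Figure D3:**
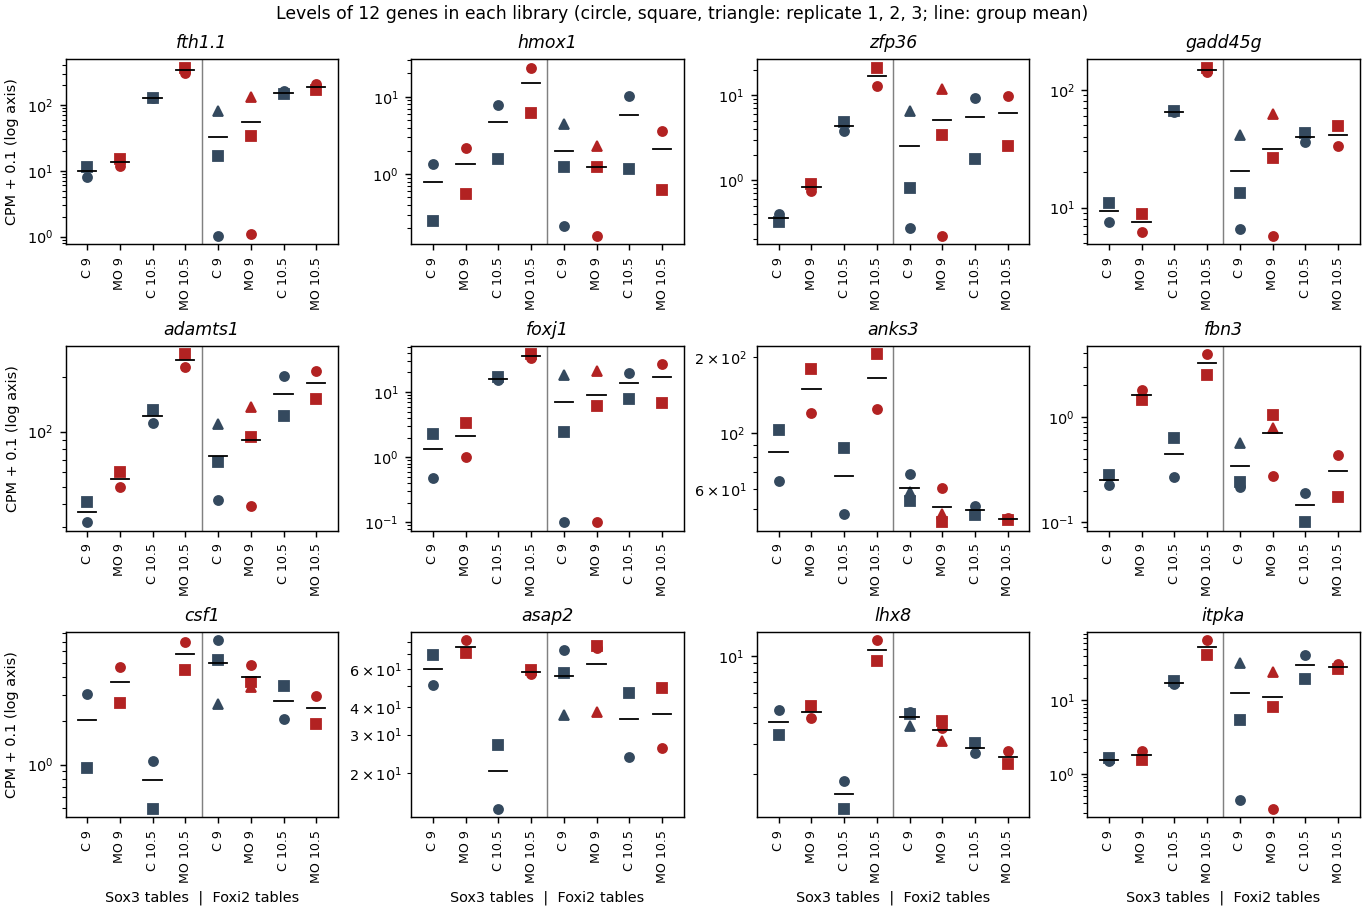
Levels (CPM + 0.1, log axis) of 12 of the genes in every library, controls in dark blue and morphants in red, with the group mean as a line. At stage 10.5 the Sox3 morphants of *gadd45g* (142 and 155 CPM) and *fbn3* (3.85 and 2.42 CPM) lay above their controls, whereas the Foxi2 libraries of stage 9 were spread by replicate number, from 0.920 to 79.8 CPM for *fth1.1* in controls.

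Of 4 genes that act on small GTPases and membrane traffic, *asap2* (chr5:137683263-137786793), which switches off Arf GTPases at adhesion sites, was at 57.1 and 59.1 CPM in morphants against 13.6 and 26.9 CPM. *arhgef40*, an exchange factor for small GTPases, was at 18.5 and 9.48 CPM against 2.85 and 4.13 CPM. *acap3*, a relative of *asap2*, was at 16.8 and 12.5 CPM against 5.99 and 5.72 CPM. *exoc3l1*, named for its likeness to an exocyst subunit, had 84 and 40 counts in morphants against 0 and 1 in controls. It was close to silent in every other group as well, with at most 0.304 CPM in any Foxi2 library.

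Among the 3 genes of matrix and adhesion, *adamts1* (chr2:18147968-18156691), a secreted protease that cuts proteoglycans, was at 225 and 266 CPM against 112 and 131 CPM, and had the smallest ratio of the 59. *fbn3* (chr1:92395778-92500369), a fibrillin of the extracellular microfibrils, was at 3.85 and 2.42 CPM against 0.168 and 0.528 CPM. *pcdha13* was at 3.65 and 5.12 CPM against 1.26 and 2.02 CPM. All 3 had a positive mean ratio under Foxi2 knockdown at stage 10.5, between 0.09 and 0.20. For *fbn3* this rests on 5 and 1 counts in morphants against 2 and 0 in controls, too few to size a change.

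A group of 3 is known for immune cells of mammals. *hhla2* (chr2:103592191-103601871), a member of the B7 family that tunes T cells, was at 10.1 and 4.64 CPM in morphants against 0.712 and 0.704 CPM. *icoslg*, a B7 relative, was at 1.90 and 1.59 CPM against 0.210 and 0.264 CPM. *gzmh*, of the granzyme proteases, was at 2.73 and 1.93 CPM against 0.419 and 0.176 CPM. These were low in all groups, with 1.75 to 7.36 CPM as the mean of the Sox3 morphants of stage 10.5.

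The metabolic genes were *asl*, *acoxl*, *gdpd3* and *noxred1*. *asl*, argininosuccinate lyase of the urea cycle, was at 46.9 and 25.3 CPM against 22.2 and 11.7 CPM, with the same ratio of 1.05 in both pairs although control replicate 1 was close to morphant replicate 2. *acoxl*, named for its likeness to peroxisomal acyl-CoA oxidase, was at 18.3 and 15.2 CPM against 5.16 and 6.51 CPM. *gdpd3*, a phosphodiesterase of lysophospholipids, was at 2.22 and 1.69 CPM against 0.377 and 0.264 CPM. *gdpd3* (chr9:2396428-2405610) lies close to *nupr1* (chr9:2302637-2304091).

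*anks3* (chr9:20812693-20824908), an ankyrin repeat and SAM domain protein that binds proteins of the cilium in vertebrates, was among the most abundant, at 125 and 206 CPM in morphants of stage 10.5 against 47.7 and 87.2 CPM. *c10orf71* had 47 and 29 counts against 3 and 1. The 23 locus-number genes had mean ratios of 1.02 to 3.54 and morphant means of 2.28 to 18.6 CPM. Among them *LOC100487139* (chr6:4245914-4246408), a short protein-coding locus, had the highest ratio of all 59. It had 0 counts in both Sox3 controls of stage 10.5 against 9.56 and 11.8 CPM in the morphants, at least 83.0-fold higher when each control is set at the floor of 3 counts. Its expected counts were not whole in 13 libraries, so its reads are shared with similar sequence, and its level is uncertain.

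Late blastula values took no part in the choice of the genes, and they ask whether the difference was already present at the earlier stage. Of the 59 genes 39 were higher than control in both Sox3 pairs of stage 9 (24.9% of the 21012 genes with a count), and for 22 both morphants were above both controls (11.1%). Some of the 39 rest on few counts. *gdpd3* had 5 and 2 counts in morphants against 3 and 1 in controls, and *c10orf71* had 8 and 5 against 2 and 1. Lower in both pairs were 2 (22.6% of all genes with a count), *gadd45g* and *prkx*. The mean ratios ran from −0.27 to 1.54 with a median of 0.26, and 3 genes reached a ratio of 1 (31 of the 21012 did). The 1 CPM added draws the ratios of scarce genes toward 0. In the unpaired edgeR fit described below, the median log2 fold change of the 47 genes tested was larger, at 0.55. Same-numbered Sox3 controls of stage 9 and stage 10.5 deviated together from their group means (r = 0.719 across genes, which are not independent), so the late blastula libraries may share clutches with those that chose the genes and are not a fully separate sample.

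By edgeR's quasi-likelihood test without pairing, 0 of the 47 genes that passed the count filter were called at the late blastula stage, as were 0.0% of all 13909 tested, while 6 of the 47 and 392 of all had an unadjusted p under 0.05. DESeq2 called 1 of the 56 genes with a count, as higher, and called 8 of all 21012 as higher. Of the 47, 9 passed the filter through the morphants alone. The counts of 6, of 41 with a positive fold change and of 10 at least 2-fold higher are therefore a description. So is the median log2 fold change of 0.55, and none of these is read against other genes. With the replicate number as a block 3 genes rose, *fbn3* and *LOC100487139* among them, in a comparison where 0.309% of genes were called higher. *fbn3* passed the filter through the morphants alone, so its call is not read against that share. Same-numbered libraries deviated together from their group means, a spread that the block removes and the unpaired fit keeps.

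*fbn3* had 1.69 and 1.34 CPM against 0.126 and 0.184 CPM (log2 fold change 3.22, SE 0.48, adjusted p 0.00389 with the block and 0.63 without). *LOC100487139* had 12 and 6.24 CPM against 1.5 and 3.46 CPM (log2 fold change 1.82, SE 0.38, adjusted p 0.0271 with the block and 1.00 without). In both genes the morphants lay above the controls, and *fbn3* was scarce in every library. In Foxi2 libraries of stage 9 *fbn3* had 0.178, 0.936 and 0.689 CPM in morphants against 0.115, 0.140 and 0.471 CPM in controls, higher in each pair. Its difference between knockdowns was not called by edgeR (1.90, SE 0.90, adjusted p 0.445 with the block). In Sox3 morphants another 4 genes passed the adjusted p with the block and were less than 2-fold higher: *anks3*, *ano2*, *adamts1* and *acap3*.

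*anks3* had 120 and 181 CPM in late blastula morphants against 64.4 and 103 CPM in controls, with log2 fold change 0.85 (SE 0.09, adjusted p 0.000354 with the block and 1.00 without). Replicate 2 was higher than replicate 1 in both arms, and both morphants were above both controls. *ano2* had 22.8 and 37.2 CPM against 10.8 and 25.4 CPM, *adamts1* had 49.5 and 60.3 CPM against 31.7 and 40.8 CPM, and *acap3* had 49.5 and 35.9 CPM against 34.1 and 25.4 CPM. Their log2 fold changes with the block were 0.79, 0.60 and 0.51. In these as well, the same-numbered morphant was the higher of each pair.

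A further set of genes fell short of the adjusted threshold. With the block 25 of the 47 had an unadjusted p under 0.05, and 1427 of all 13909 genes tested did. Among them *acoxl* had 34.2 and 27.7 CPM in morphants against 19.0 and 22.3 CPM in controls (log2 fold change 0.57, SE 0.14, adjusted p 0.0612 with the block), and *noxred1* had 0.923 and 0.592 CPM against 0.099 and 0.205 CPM (2.21, SE 0.60, adjusted p 0.108). In *acoxl* and *noxred1* both morphants lay above both controls. *noxred1* was 1 of the 9 genes that passed the filter through the morphants alone. Its values and the count of 25 are therefore a description, not read against other genes.

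For several genes the morphants did not lie above the controls at the late blastula stage, among them *lhx8* and *hhla2*, with high ratios at stage 10.5. *lhx8* had 4.16 and 4.94 CPM in morphants of stage 9 against 4.65 and 3.28 CPM (log2 fold change 0.21, SE 0.23 with the block). *hhla2* had 0.933 and 0.650 CPM against 1.72 and 0.442 CPM. *gadd45g* had 6.14 and 8.69 CPM against 7.42 and 10.9 CPM, lower in both pairs, with log2 fold change −0.31 (SE 0.15, adjusted p 0.56 with the block), the reverse order of stage 10.5. *msgn1* had no count in any Sox3 library of stage 9.

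**Figure D4:**
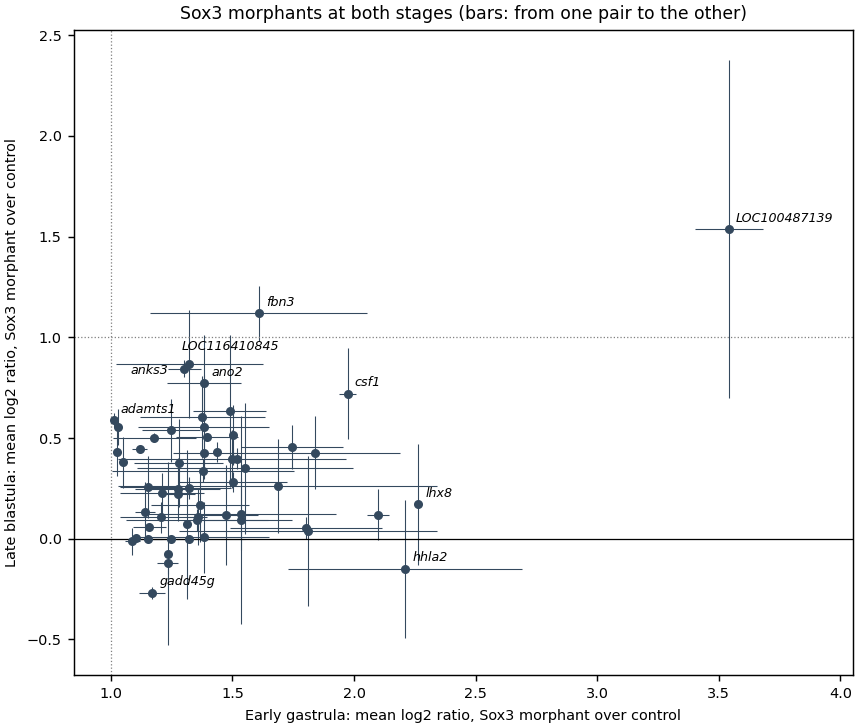
Mean log2 ratio of Sox3 morphant to control at the early gastrula stage (x axis, which chose the genes) and the late blastula stage (y axis) for 58 of the 59 genes, with bars that run from one pair to the other. Dotted lines mark a ratio of 1. *LOC100487139* and *fbn3* lie above 1 at the late blastula stage and *gadd45g* is the lowest, at −0.27.

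The 31 genes that were also 2-fold higher in both Sox3 pairs of the early gastrula, but at or above the Foxi2 limit, had a median late blastula ratio of 0.80 in the Sox3 morphants, against 0.26 for the 59. By the unpaired edgeR fit the median log2 fold changes were 1.32 and 0.55, over the genes tested. Of the 27 tested among the 31, 14 were called with the block (0.309% of all genes) and 0 without it. DESeq2 called 4 of the 31 as higher, and 8 of all 21012 genes. This difference between the lists was not tested, as both were chosen from these embryos.

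In Foxi2 morphants of the late blastula the 59 genes had a median ratio of 0.05, and the median fitted log2 fold change of −0.08 turned on single libraries, at −0.37 without morphant replicate 3 and 0.56 without control replicate 3. In all 3 pairs 4 were higher (13.1% of 19918 genes with a count were) and 10 were lower (14.3%). Of the 37 genes that passed the filter edgeR called 0 without pairing (0.0% of 12802) and 0 with it (0.273% called higher). In these fits 0 and 6 of the 37 had an unadjusted p under 0.05, as did 145 and 1953 of all 12802. DESeq2 called 0. Without the third pair, whose embryos stood near the gastrula by their stage-dependent genes, 0 were called with the block, an alternative chosen after seeing the data. *fth1.1* came nearest, with 1.01, 33.2 and 131 CPM in Foxi2 morphants against 0.920, 16.6 and 79.8 CPM in controls. Its log2 fold change of 0.81 (SE 0.12, adjusted p 0.0232 with the block) was under 2-fold, and the morphant was higher in each of the 3 pairs. Of the stress and immediate-early genes, *fth1.1*, *zfp36*, *junb* and *gadd45g* had mean log2 ratios of 0.58, 0.68, 0.51 and 0.46 here. Their mean ratios in Sox3 morphants of stage 9 were 0.43, 0.46, 0.395 and −0.27. *zfp36*, *junb* and *gadd45g* were lower in Foxi2 pair 1 and higher in pairs 2 and 3. *hmox1* and *nupr1* went the other way, at −0.27 and −0.17 against 0.398 and 0.50 in Sox3 morphants. The 1147 other genes that rise with stage were higher in the Foxi2 morphant of pair 2, at 3.27 against 3.07, and slightly lower in pairs 1 and 3. The part of this in the Foxi2 ratios was not tested.

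The difference between knockdowns was tested directly at the late blastula stage, as the Sox3 change minus the Foxi2 change. Without the block 0 of the 48 genes tested were called (2 at an unadjusted p under 0.05), and DESeq2 called 0. With the block 2 were called, both toward Sox3 and *anks3* among them, against 0.265% of 14316 genes. For *anks3* the Foxi2 morphants had 60.6, 44.0 and 47.4 CPM and the controls 68.4, 53.5 and 58.4 CPM, lower in each pair. The difference was 1.09 (SE 0.11, adjusted p 0.000654). For the rest of the genes tested no difference between the knockdowns was shown at this stage.

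The stage change in control embryos shows how the levels of these genes moved between the stages in the embryos used as controls. The Sox3 controls of stage 10.5 entered the rule, which favours genes that are low there, so falls are favoured and the counts are a description. From stage 9 to stage 10.5 the log2 ratio of mean CPM in Sox3 controls was at least 1 for 19 of the 59 genes, at most −1 for 7 and in between for 33. By edgeR 17 rose (5.46% of 14067 genes did) and 3 fell (8.67%). With the replicate block 25 rose (9.85%) and 9 fell (13.3%).

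The Foxi2 controls are separate libraries, but those of stage 10.5 also entered the rule, whose Foxi2 limit favours genes that are high there, so rises are favoured and these counts too are a description. All 19 of the genes above 1 in the Sox3 controls had a positive ratio in the Foxi2 controls, and all 7 below −1 had a negative one. The share among all genes that changed 2-fold in Sox3 controls was not taken, so neither count is read as particular to the 59. The 1147 other genes that rose in Sox3 controls had a mean log2(CPM + 2) of 4.47 and 3.86 in Foxi2 controls of stage 10.5. In those of stage 9 it was lower in replicates 1 and 2, at 2.23 and 3.07, and 4.10 in replicate 3. No gene of the 59 was called in the Foxi2 controls (edgeR, 3 of 42 at an unadjusted p under 0.05; DESeq2 0), where the stage 9 replicates were far apart. At least 2-fold higher at stage 10.5 were 22 of the 42 (8.16% of 13247 genes) and at least 2-fold lower were 3 (8.21%). Without the stage 9 control of replicate 3 these counts were 23 and 5 of 41, with 0 called.

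Among the genes that rise into gastrulation, *fth1.1* had 8.04 and 11.3 CPM in Sox3 controls of stage 9 and 128 and 130 CPM at stage 10.5 (log2 fold change 3.78, SE 0.26, adjusted p 0.00496). *plekho1* had 0.377 and 1.36 CPM and then 13.2 and 19.4 CPM, *foxj1* 0.377 and 2.14 CPM and then 15.0 and 16.7 CPM, and *itpka* 1.38 and 1.55 CPM and then 16.3 and 18.1 CPM. *gadd45g* had 7.42 and 10.9 CPM and then 64.8 and 65.8 CPM. All 5 rose in the unpaired test, as did *zfp36*, *gnb3*, *adamts1*, *tfap2e*, *prkx* and *msgn1*. In the morphants the same genes stood higher at stage 10.5, as the rule requires. The median morphant ratio from stage 9 to stage 10.5 over these 19 genes was 3.15 against 1.82 in controls.

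Over the roles, of the stress and immediate-early genes 4 of 6 were among the 19, as were 3 of 6 transcription factors and 4 of 8 genes of signal relay. None of the 4 metabolic genes or the 3 immune genes was. The set as a whole had 19 of 59. The groups are small and were drawn up after the values were seen, so no contrast between roles is read from these counts.

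The 7 genes with the opposite course were *acap3*, *acoxl*, *asap2*, *akna*, *ano2*, *lhx8* and *LOC100487139*. In Sox3 controls *acap3* had 34.1 and 25.4 CPM at stage 9 and 5.99 and 5.72 CPM at stage 10.5 (log2 fold change −2.28, SE 0.25, adjusted p 0.0092), and *acoxl* had 19.0 and 22.3 CPM and then 5.16 and 6.51 CPM. These 2 and *LOC100487139* fell in the unpaired test. *asap2*, *akna*, *ano2* and *lhx8* fell with the block only, as did *csf1* and 1 other locus-number gene. Transcripts that decline between these stages are commonly of maternal origin in *Xenopus*, which total levels cannot show for a given gene.

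In Sox3 morphants the ratio between stages was nearer to 0 than in controls, or positive. *asap2* went from 81 and 71 CPM to 57.1 and 59.1 CPM in morphants and from 50.4 and 69.8 CPM to 13.6 and 26.9 CPM in controls. *akna* had means of 8.03 and 7.63 CPM in morphants at the 2 stages against 7.83 and 2.47 CPM in controls. *lhx8* went up in morphants, from a mean of 4.55 to 10.7 CPM, while controls went from 3.96 to 1.43 CPM. The median morphant ratio of the 7 was −0.38 against −1.52 in controls, and 3 of the 7 had a morphant mean at stage 10.5 above the control mean at stage 9. The rule fixes the order at stage 10.5, and with it part of this contrast.

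**Figure D5:**
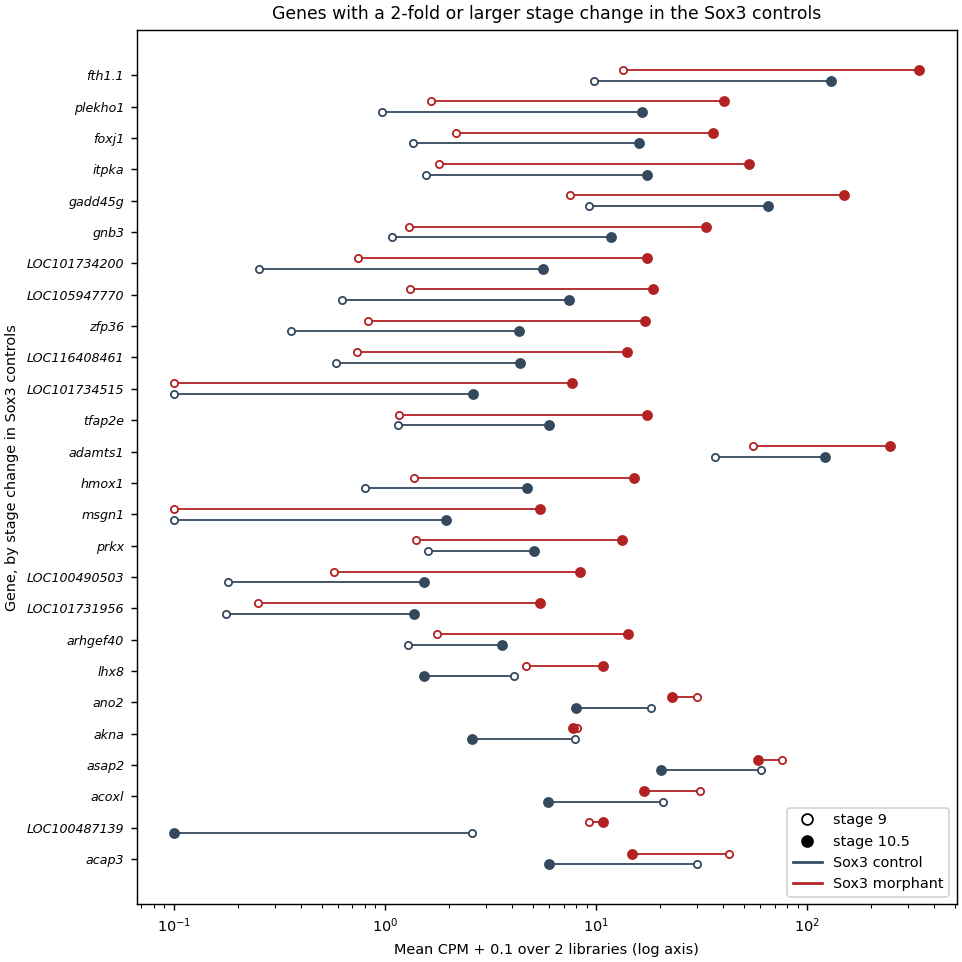
Mean CPM (+ 0.1, log axis) at stage 9 (open) and stage 10.5 (filled) in Sox3 controls (dark blue) and Sox3 morphants (red) for the 26 genes whose control ratio between stages was 2-fold or more. For the upper 19 the median log2 ratio between stages was 1.82 in controls and 3.15 in morphants, and for the lower 7 it was −1.52 and −0.38.

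Other genes whose level depends on stage also differed a little between Sox3 morphants and controls. For 43 other genes at least 2-fold higher at stage 10.5 in Foxi2 controls (unadjusted p under 0.05), the mean log2(CPM + 2) at stage 10.5 was 3.72 and 4.10 in Sox3 morphants and 3.51 and 3.80 in controls, higher in each pair. For 288 other genes that were lower at stage 10.5 in Foxi2 controls it was 3.89 and 3.72 in morphants and 3.77 and 3.69 in controls, also higher in each pair. The corresponding values at stage 9 were 2.89 and 2.81 against 2.82 and 2.80, and 5.20 and 5.22 against 5.16 and 5.16. The 59 genes had a median ratio of 1.36 at stage 10.5, and the part of these smaller differences in it was not tested.

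Around these genes, 4 lists of pathway and marker genes hold 1 of the 59 each. In Sox3 morphants of stage 10.5, with the replicate block, a median log2 fold change of 0.02 over all genes tested, and 1.87% of them called higher and 1.48% lower, the p53 response list had 3 of 28 called higher (*gadd45g*, *plk2*, *tp73*) and 1 lower (*tp53inp2*), with a median of 0.13. The list of FGF and receptor tyrosine kinase signalling had 3 of 45 called higher (*egr1*, *fos*, *junb*) and 4 lower (*dusp1*, *hgf*, *igf3*, *kitlg*), with a median of 0.11. The list of adhesion and matrix genes had 3 of 50 higher (*cldn5*, *col1a2*, *lamb1*) and 1 lower (*mmp14*), with a median of 0.28. The mesoderm list had *msgn1* alone of 13, with a median of −0.11. *gadd45g*, *junb* and *msgn1* are of the 59 and were chosen by this same comparison. Nothing is therefore read from the counts called higher on their lists.

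Genes of heat shock and the unfolded protein response (0 of 32) and of cell death (0 of 19) gave no call in either direction, and interferon and innate immune genes gave 2 of 24 higher, *socs3* and *tnf*. Without the block none of the listed genes was called in either knockdown at either stage. The endoderm list had 0 of 12 called, with a median of 0.35, and the ectoderm list 0 higher and 5 lower of 12, with a median of −0.59.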

How the data were processed

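Whole-embryo polyA RNA-seq of 18 libraries was deposited as 4 tables of expected counts, 1 for each knockdown and stage, which the authors made with RSEM against the *X. tropicalis* V10.0 genome. The labels name RSEM 1.2.12 with Bowtie2 2.2.7, whereas the methods of the study name a later RSEM with STAR, so the aligner is uncertain. Values were not normalized across libraries, and reads of overlapping genes may be split, since strand is not stated. Every sample column was used. The genes, lists and role groups were chosen with earlier results of these data known.

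CPM were computed per library with no further scaling. Expected counts were rounded, and edgeR 4.0.16 (R 4.3.3) was run on all genes passing filterByExpr (TMM, quasi-likelihood test, Benjamini-Hochberg adjustment). A call needed an adjusted p under 0.05 and a 2-fold change. The SE given with an edgeR fold change is the absolute log2 fold change divided by the square root of the test's F statistic. With the block and 2 libraries in a group, it leans largely on the spread shared across genes. Each fit used only the groups compared. DESeq2 1.42.0 was an alternative, as were a replicate block, a looser filter, library size scaling and leaving out each library. The methods are silent on whether replicates are separate clutches, so p-values measure only the spread between these libraries. Deviations from group means correlated at 0.713 to 0.954 in the 9 same-numbered morphant and control pairs, so the numbers were read as pairs within a stage. Where groups held 2 libraries, both pairs give the same value by construction, so the 9 values are not separate. In the Foxi2 controls numbers did not pair across stages.

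Named genes were the 12 with the largest Sox3 early gastrula ratio above 5 CPM, the 8 most abundant, members of the lists (at most 6 a list), those called at the late blastula stage (at most 10 a direction), the 3 on each side of each limit, and the 5 with the largest change with stage in each direction. Other symbols were added after their values were seen, to account for every named gene. Genes with only a locus number were counted and mostly not described. One of the genes is counted and not reported here. No sequences were used here.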

Additional observations from a re-analysis of the deposited data

Results flagged for a closer look

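The late blastula change of *anks3* differed between the knockdowns by the test of the difference with the replicate block. The change in Sox3 morphants minus that in Foxi2 morphants was 1.09 on the log2 scale, and the gene was higher in both Sox3 pairs and lower in all 3 Foxi2 pairs. The call needed the block and held with it when the third Foxi2 pair was left out. Without the block the difference ran from 0.71 to 1.51 as single libraries were left out.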

How the results depend on the processing

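The number of genes that meet the rule depends on its form. It was 59 as given, 57 with TMM-scaled CPM (55 shared), 111 with 0.5 CPM added in place of 1 (54 shared), 147 when the ratio of group means replaced both pairs, and 29 with a Foxi2 mean under 0. The replicate block, which uses the pairing, moved the counts of genes called from 0 to 3 for Sox3 at the late blastula stage, from 0 to 2 for the difference between knockdowns (2 also with the block and without the third Foxi2 pair, chosen after seeing the data), from 20 to 34 for the stage change in Sox3 controls, from 0 to 58 for Sox3 and from 0 to 1 for Foxi2 at the early gastrula stage. It changed the count of no other comparison. DESeq2 gave 1 for Sox3 at the late blastula stage and 31 at the early gastrula stage, and testing every gene with at least 1 count gave 2 at the early gastrula stage. Leaving out 1 library in turn gave 12 to 17 genes called for the stage change in Sox3 controls, with 12 each without control replicate 1 of stage 10.5 and control replicate 2 of stage 9, and 0 to 0 for the other 6 comparisons. In these fits an arm of 1 library is assumed to vary like the others. The median late blastula log2 fold change of the set in Sox3 morphants ran from 0.38 to 0.77 with a library left out, and that in Foxi2 morphants from −0.37 to 0.56, so the sign of the second, −0.08 as given and 0.02 with the block, rests on single libraries. The log2 fold changes of *fbn3* and *LOC100487139* stayed between 2.97 and 3.56 and between 1.33 and 2.61, and those of *anks3* ran from 0.48 to 1.25 in Sox3 morphants and from 0.71 to 1.51 for the difference between knockdowns. Low counts limit the rest: 20 of the 59 genes were under 1 CPM in the Sox3 controls of stage 10.5, and 12 were too scarce to test at the late blastula stage in Sox3 libraries. In Foxi2 libraries of the late blastula 22 were too scarce to test.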
